A study of Mus musculus with 10 samples.

Results

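The 10 genes described here serve the first steps of B lymphoid development: Dntt, Rag1, Rag2, Ebf1, Pax5, Il7r, Vpreb1, Igll1, Cd79a and Cd79b. They were taken by name, matched through their Ensembl identifiers to mouse symbols of GENCODE M21, and all 10 were found among the 38887 gene identifiers of the table. Their transcripts were measured by RNA sequencing in hematopoietic progenitor cells of bone marrow from mice that bore Lewis lung carcinoma, a transplantable mouse tumour. One group of 5 libraries (CK2i) came from mice given the CK2 inhibitor BMS-595 at 60 mg/kg over 2 weeks, and the other 5 libraries (vehicle, titled untreated in the labels) came from mice given vehicle; mice of both groups carried the tumour, and no group without a tumour is compared here. The labels number the replicates without saying whether each is a separate mouse, and give no mouse strain, age or sorting markers, so each p-value speaks of the spread among libraries, which may be technical. CK2 (casein kinase 2) is a protein kinase active in most cells, and the comparison asks which transcripts differed after its inhibition in a study of myeloid differentiation.

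B cell precursors assemble immunoglobulin genes by V(D)J recombination, in which the RAG1 and RAG2 proteins cut DNA at recombination signals, general repair factors join the ends, and terminal transferase, the product of Dntt, adds bases at the junctions. Dntt and Rag1 transcripts already appear in early multipotent progenitors that lean towards the lymphoid fate, a state called lymphoid priming. Commitment to the B lineage follows under the transcription factors EBF1 and PAX5 and the interleukin-7 receptor, and pro-B and pre-B cells then make the surrogate light chain (Vpreb1 and Igll1) and the signal chains of the antigen receptor (Cd79a and Cd79b).

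Total estimated counts per library ranged from 34127674 to 40811539 in CK2i and from 37569160 to 43636152 in vehicle. The labelled progenitor identity was checked with 8 marker genes, of which Kit, the stem cell factor receptor, was at 48.3 ± 5.47 FPKM in CK2i and 56.9 ± 2.98 FPKM in vehicle, and Cd34, a surface sialomucin of progenitors, at 84.2 ± 6.30 and 76.5 ± 12.6 FPKM (SD, n = 5 per group). The lowest of the 8 were Hlf, at 2.34 ± 0.742 FPKM in CK2i and 2.14 ± 0.384 FPKM in vehicle, and Mecom, at 2.14 ± 0.218 and 1.78 ± 0.395 FPKM. Kit was the 1 progenitor gene of the 8 that passed, with a fall of 0.26 ± 0.06 on the log2 scale (SE, edgeR adjusted p = 0.0302). Without CK2i 2 and 5 its log2 fold change was -0.29 (edgeR adjusted p = 0.0556). CK2i 2 and CK2i 5 stood apart from the rest along the first principal component of all tested genes (48.2% of the variance). They scored 36.0 and 35.2, against -3.95 to 9.81 for CK2i 1, 3 and 4 and -24.5 to -8.13 for vehicle. Of 12 genes of granulocyte precursors, 8 were higher in CK2i and 0 lower, where 6.43% of all tested genes were higher and 6.76% lower, and their summed level ran from 4926 to 8025 CPM in CK2i libraries and from 2632 to 5384 CPM in vehicle libraries. The 2 of these followed through the alternatives, Gfi1 and Mpo, had log2 fold changes of 0.91 and 0.63. Without CK2i 2 and 5 the values were 0.66 and 0.43, and neither passed (edgeR adjusted p = 0.0912 and 0.252). In that setting 175 genes of the whole table passed, against 1892 with all libraries. With fewer libraries a call is harder to reach, so a lost call alone does not show a smaller change. Gfi1 was kept in 15 of 18 alternatives and Mpo in 4. Of 6 megakaryocyte genes 3 were lower and 0 higher, and of 6 erythroid genes 2 were higher and 1 lower. Pf4, the most abundant of the megakaryocyte genes, had a higher mean than Kit and Cd34, at 873 ± 288 FPKM in CK2i and 1425 ± 297 FPKM in vehicle. It did not pass (edgeR adjusted p = 0.0535). Among markers of other lymphoid cells, the 9 plasma cell genes summed to 430 to 654 CPM in CK2i and 678 to 878 CPM in vehicle, but the 8 without Jchain, the immunoglobulin joining chain gene, to 176 to 235 CPM and 185 to 207 CPM, and the 12 T cell genes to 6.92 to 9.57 CPM and 7.29 to 8.995 CPM. Of the 8, Xbp1 was the most abundant, at 147 ± 12.8 CPM in CK2i and 145 ± 6.50 CPM in vehicle. The log2 fold changes of Tnfrsf17, Derl3, Mzb1 and Prdm1 lay between -0.64 and -0.54, and that of Irf4 was -0.18. Those of Sdc1, Fkbp11 and Xbp1 were 0.20, 0.15 and 0.02. None of the 8 passed (edgeR adjusted p of 0.0661 or more), and the median of all 9 was -0.54. The part of plasma cells and T cells in the results below was not tested. In bulk RNA, fewer cells that express a gene and less of its RNA per cell cannot be told apart.

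Promoters are shown for Igll1 and Vpreb1, which neighbour each other on chromosome 16 and encode the surrogate light chain, for Cd79a and for Dntt. Each is a RefSeq promoter of build GRCm38.p6 running from 250 bases before to 50 bases after the start of transcription, written 5′ to 3′ on the gene's own strand. Capitals mark matches, on either strand, to the E-box of E2A (CAGGTG), the EBF core (CCCNNGGG), the Runx core (TGTGGT), the Ikaros core (TGGGAA) and the Ets core of PU.1 (GAGGAA). No base of these promoters lay in matches to more than 1 motif.
Igll1 (chr16:16863936-16864235, minus strand): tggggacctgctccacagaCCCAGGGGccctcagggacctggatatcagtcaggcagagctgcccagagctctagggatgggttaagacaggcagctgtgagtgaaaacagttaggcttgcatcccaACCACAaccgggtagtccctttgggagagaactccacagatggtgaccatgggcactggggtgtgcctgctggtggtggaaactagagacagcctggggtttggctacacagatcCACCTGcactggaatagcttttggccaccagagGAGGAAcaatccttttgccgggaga
Vpreb1 (chr16:16869206-16869505, minus strand): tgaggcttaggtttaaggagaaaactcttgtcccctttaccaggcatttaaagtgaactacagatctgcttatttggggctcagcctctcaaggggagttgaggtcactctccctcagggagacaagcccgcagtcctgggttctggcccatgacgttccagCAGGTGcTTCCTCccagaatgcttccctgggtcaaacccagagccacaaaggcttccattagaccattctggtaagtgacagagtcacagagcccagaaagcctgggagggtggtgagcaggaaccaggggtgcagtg
Cd79a (chr7:24897247-24897546, plus strand): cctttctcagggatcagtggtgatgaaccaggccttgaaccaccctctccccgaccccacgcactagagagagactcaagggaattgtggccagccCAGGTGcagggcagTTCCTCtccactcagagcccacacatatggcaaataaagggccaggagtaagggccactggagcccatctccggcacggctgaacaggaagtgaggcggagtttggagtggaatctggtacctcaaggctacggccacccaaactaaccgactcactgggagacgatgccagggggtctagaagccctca
Dntt (chr19:41029025-41029324, plus strand): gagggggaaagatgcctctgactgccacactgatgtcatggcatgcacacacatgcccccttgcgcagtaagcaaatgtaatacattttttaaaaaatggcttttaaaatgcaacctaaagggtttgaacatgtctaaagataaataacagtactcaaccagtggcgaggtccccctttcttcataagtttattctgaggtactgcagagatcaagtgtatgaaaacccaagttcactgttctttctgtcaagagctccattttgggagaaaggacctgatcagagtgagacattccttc

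The Igll1 promoter held 4 of the 5 motifs, the E-box, the EBF core, the Runx core and the Ets core, each once. The promoters of Vpreb1 and Cd79a each held 1 E-box and 1 Ets core, and that of Dntt held none of the 5 motifs. Of the 10 genes 9 had a promoter listed, all but Cd79b, and Ebf1 had 2. The E-box was found in 4 of these 10 promoters against 20.2% of 32851 promoters of the same length, the Runx core in 4 against 16.8%, the Ets core in 5 against 28.3%, the Ikaros core in 2 against 25.6% and the EBF core in 1 against 13.7%. These matches are a description of letters and not of bound sites.

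Per transcript length, the 10 genes differed widely in level. Over all 10 libraries the order by mean FPKM was Cd79b, Dntt, Cd79a, Il7r, Vpreb1, Rag2, Igll1, Ebf1, Rag1 and Pax5. Cd79b and Dntt were above 1 FPKM in every library, Cd79a and Il7r lay around that level, and the 6 others stayed below 1 FPKM in every library. Cd79b (14.4 ± 1.75 FPKM in CK2i and 12.6 ± 1.82 FPKM in vehicle) and Dntt (8.96 ± 1.83 and 11.4 ± 3.25 FPKM) were close to each other in vehicle, where their ranges over libraries overlapped. From Vpreb1 (0.428 ± 0.0881 FPKM in CK2i and 0.432 ± 0.157 FPKM in vehicle) downward, neighbours in the order had overlapping values. Of 18 further B lineage genes, 10 likewise stayed below 1 FPKM in every library. Among these, Ms4a1, which encodes the B cell surface protein CD20, was at 0.084 ± 0.076 FPKM in CK2i and 0.126 ± 0.0456 FPKM in vehicle, Cr2 and Fcer2a did not exceed 0.01 and 0.04 FPKM in any library, and Vpreb2 had no count. Others of the list were higher, such as Ly6d, a surface marker of B-biased lymphoid progenitors, at 6.19 ± 2.89 FPKM in CK2i and 6.59 ± 1.19 FPKM in vehicle, and Pou2af1, a B cell coactivator gene, at 3.61 ± 1.25 and 4.38 ± 0.516 FPKM. In CPM, which take no account of transcript length, 46.3% of the tested genes had a lower mean than Dntt.

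**Figure D1:**
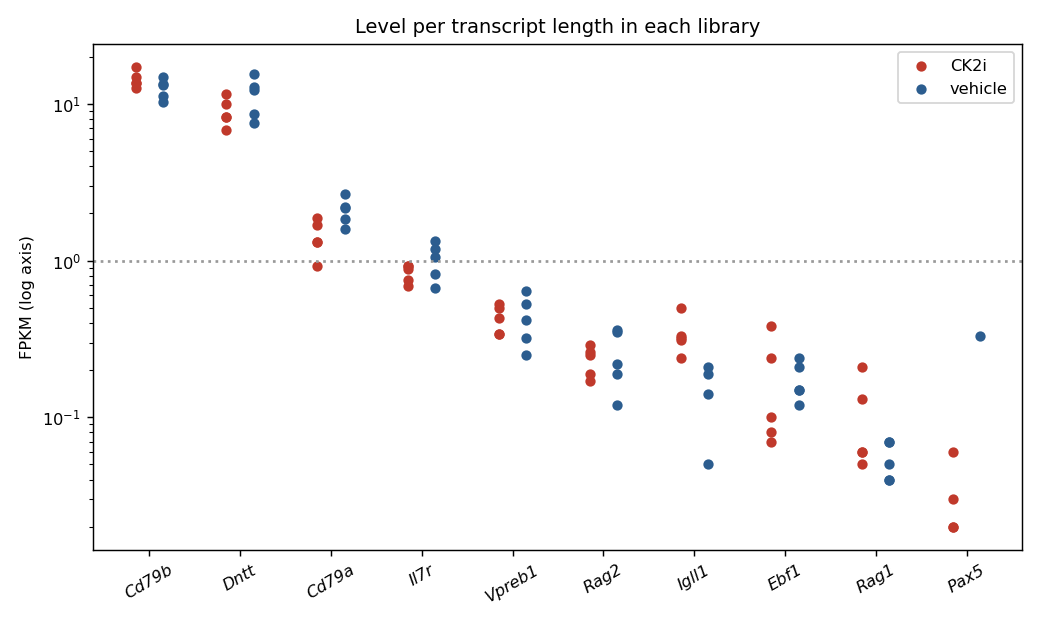
FPKM (log axis) of the 10 genes in each library, ordered by mean, with CK2i libraries left of vehicle libraries within each gene; libraries listed at 0 FPKM (Pax5 and Igll1) are not drawn, and the dotted line is 1 FPKM. Cd79b and Dntt lie above the line in every library, and 6 genes lie below it in every library.

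None of the 10 genes passed the test. Of the 10, 7 passed the filter on low counts and could be tested in the fit over all genes, and 0 of these 7 passed an adjusted p of 0.05 in edgeR's quasi-likelihood test, where 13.2% of the 14346 tested genes did (6.43% higher and 6.76% lower in CK2i). At an unadjusted p under 0.05, 1 of the 7 was found, Cd79a, where 4959 of the 14346 tested genes were. DESeq2 called 1 of the 8 genes to which it gave an adjusted p, again Cd79a, and limma on log2(FPKM + 1) called 0. Over the whole table DESeq2 called 3142 genes and this limma fit 1197. The number of genes to which DESeq2 gave an adjusted p was not taken, so its 1 of 8 has no share beside it. Of the 7 log2 fold changes, 5 lay below 0 and 2 above, with a median of -0.28, beside a median of -0.00062 over all tested genes. Vpreb1, Igll1 and Pax5 missed the filter, and their fold changes come from the same test with no filter, in which 5.97% of 22935 genes passed (2.84% higher and 3.13% lower) and none of these 3 did.

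**Figure D2:**
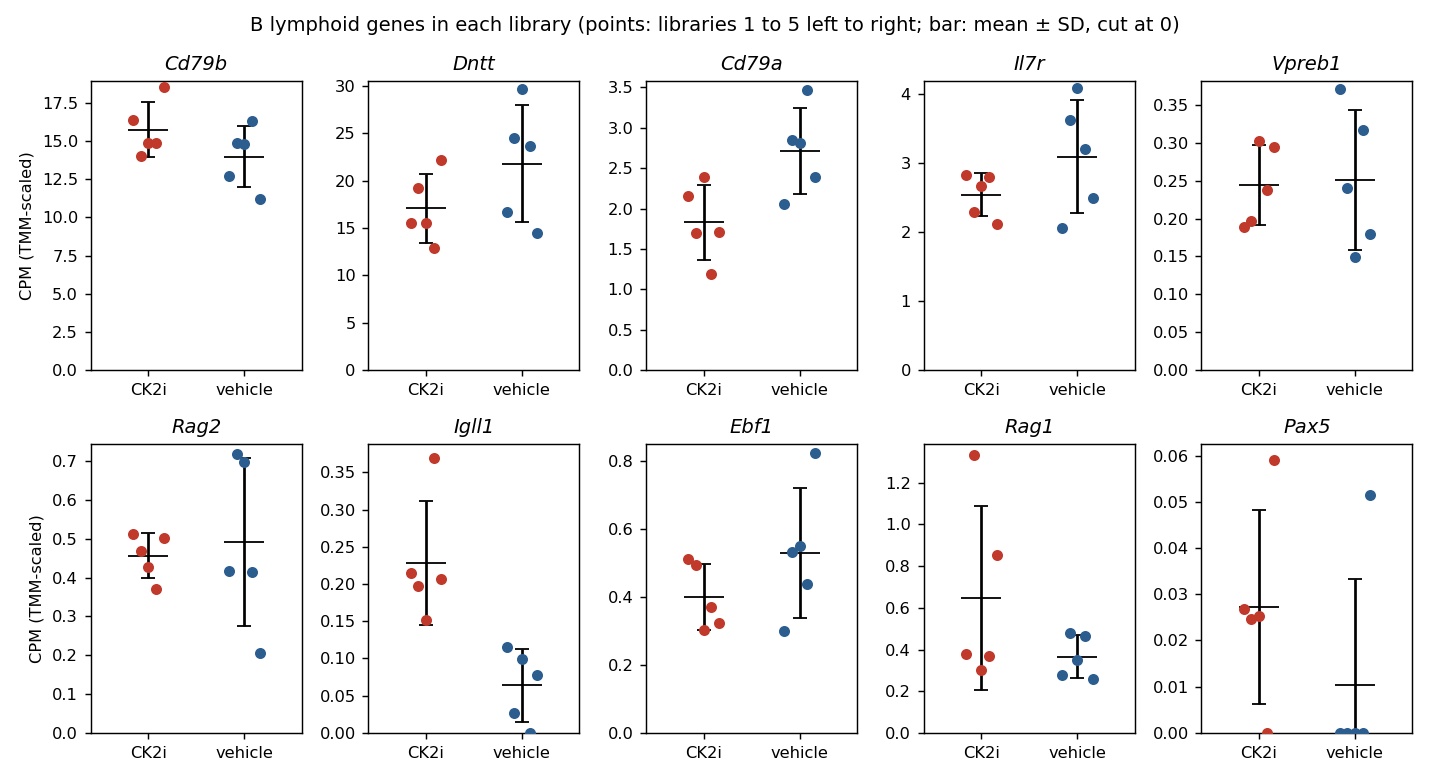
CPM with TMM scaling of each gene in the 5 CK2i and 5 vehicle libraries, with the mean and SD of each group. The groups overlap for every gene but Igll1, whose CK2i libraries lie between 0.151 and 0.370 CPM and whose vehicle libraries lie between 0 and 0.116 CPM.

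The recombination genes showed no change in common. Dntt, the terminal transferase gene (ENSMUSG00000025014; GRCm38 chromosome 19, 41029275 to 41059525), was at 15.5, 19.2, 15.5, 12.9 and 22.2 CPM in CK2i 1 to 5, against 16.7, 24.5, 29.7, 23.6 and 14.5 CPM in vehicle 1 to 5. The vehicle libraries spread over a wider range, and 1 CK2i library lay below all of them. The log2 fold change of Dntt was -0.35 ± 0.20 (SE, edgeR adjusted p = 0.234), and its 95% interval, -0.79 to 0.09, runs from 0.577-fold to 1.06-fold.

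Rag1 (ENSMUSG00000061311; chromosome 2, 101638282 to 101649501) had 14, 54, 12, 14 and 29 counts in CK2i 1 to 5, or 0.376, 1.33, 0.302, 0.370 and 0.855 CPM, against 0.278, 0.479, 0.349, 0.464 and 0.257 CPM in vehicle 1 to 5. Only CK2i 2 and CK2i 5, the libraries that stood apart on the first principal component, lay above all vehicle libraries. Its log2 fold change of 0.82 ± 0.43 (SE, edgeR adjusted p = 0.192) was 0.37 without CK2i 2 (adjusted p = 0.530) and -0.064 without CK2i 2 and 5 (0.933). Rag2 (ENSMUSG00000032864; chromosome 2, 101624718 to 101632529), the partner subunit that lies next to Rag1, was at 0.511, 0.468, 0.428, 0.370 and 0.501 CPM in CK2i 1 to 5, against 0.416, 0.719, 0.698, 0.415 and 0.206 CPM in vehicle 1 to 5. All CK2i values of Rag2 fell inside the vehicle range, and the log2 fold change was -0.10 ± 0.30 (SE, edgeR adjusted p = 0.830). Another gene, B230118H07Rik, shares 80 exonic bases with Rag1 on the same strand and 208 with Rag2 on the opposite strand. It was at 17.9 ± 0.964 CPM in CK2i and 17.0 ± 1.56 CPM in vehicle, with 18.0 CPM in CK2i 2, and its part in the counts of Rag1 and Rag2 was not tested.

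The ends that the recombinase leaves are joined by the general machinery of nonhomologous end joining. Of a list of 12 partners of V(D)J recombination, made of joining factors and of Hmgb1 and Hmgb2, all were tested, 1 fell and 0 rose, with a median log2 fold change of -0.02. A share of 1 in 12 is near the 6.76% of all tested genes that fell. The fall was that of Xrcc5, which encodes the Ku80 subunit of the end-binding Ku dimer: it was at 52.2, 39.6, 48.0, 54.9 and 39.0 CPM in CK2i 1 to 5, against 63.1, 58.8, 56.7, 60.9 and 61.8 CPM in vehicle 1 to 5. Every CK2i library lay below every vehicle library, and the lowest were CK2i 2 and CK2i 5. The log2 fold change was -0.37 ± 0.09 (SE, edgeR adjusted p = 0.0335), and the call was kept in 10 of 18 alternatives (adjusted p from 0.00446 to 0.0856); without CK2i 2 and 5 the value was -0.22 (0.0856). Xrcc6, the other Ku subunit, was at 109 ± 7.64 CPM in CK2i and 115 ± 3.63 CPM in vehicle and did not pass (adjusted p = 0.291). Hmgb1 and Hmgb2, DNA-bending proteins that assist RAG cutting, were the most abundant of the list, at 518 ± 26.3 and 185 ± 11.8 FPKM in CK2i and 529 ± 14.2 and 179 ± 7.28 FPKM in vehicle, and did not pass (adjusted p = 0.171 and 0.593).

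The B lineage factors were barely detected. Ebf1, the factor that specifies the B lineage (ENSMUSG00000057098; chromosome 11, 44617317 to 45008091), had 19, 20, 12, 14 and 11 counts in CK2i 1 to 5, against 13, 20, 22, 18 and 32 counts in vehicle 1 to 5. The groups overlapped, with the highest value in vehicle 5, and the log2 fold change was -0.39 ± 0.28 (SE, edgeR adjusted p = 0.341). Its FPKM did not track its counts: the mean was 0.174 FPKM in both groups, since 20 counts stood for 0.38 FPKM in CK2i 2 and for 0.15 FPKM in vehicle 2. Pax5, which maintains B cell commitment (ENSMUSG00000014030; chromosome 4, 44524757 to 44710487), had 1, 1, 1, 0 and 2 counts in CK2i 1 to 5, against 0, 0, 0, 0 and 2 counts in vehicle 1 to 5. A count of 0 allows up to 3 counts, or 0.0793 CPM in CK2i 4 and 0.0694 to 0.0799 CPM in vehicle 1 to 4, so no difference was detectable for Pax5 at this depth. Such limits cover counting error only.

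Il7r encodes the alpha chain of the interleukin-7 receptor, on which mouse B lymphopoiesis depends (ENSMUSG00000003882; chromosome 15, 9505788 to 9530176). It was at 2.82, 2.29, 2.67, 2.80 and 2.12 CPM in CK2i 1 to 5, against 2.06, 3.62, 4.09, 3.20 and 2.50 CPM in vehicle 1 to 5. All CK2i values lay within the vehicle range, and the log2 fold change was -0.28 ± 0.19 (SE, edgeR adjusted p = 0.303; 95% interval -0.69 to 0.13).

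The receptor signals through the kinases JAK1 and JAK3 to STAT5, a route that many cytokine receptors of these progenitors share. Jak1 fell by 0.14 ± 0.04 on the log2 scale (SE, edgeR adjusted p = 0.0407), to 203 ± 7.28 CPM in CK2i against 224 ± 7.74 CPM in vehicle. Stat5b fell by 0.16 ± 0.04 (adjusted p = 0.0258), to 161 ± 7.30 CPM against 180 ± 2.41 CPM in vehicle, and its neighbour Stat5a fell by 0.23 ± 0.04 (adjusted p = 0.0178). For Stat5a and Stat5b every CK2i library lay below every vehicle library; for Jak1 4 of 5 did. Stat5a was kept in 17 of 18 alternatives, Stat5b in 9 and Jak1 in 6. Jak3 had the opposite sign, at 59.5 ± 5.98 CPM in CK2i and 53.4 ± 3.14 CPM in vehicle (log2 0.16 ± 0.07, edgeR adjusted p = 0.146), and did not pass, with 4 of 5 CK2i libraries above every vehicle library. These genes belong to a list of 26 factors and receptors of lymphoid priming, of which 25 were tested, 5 fell and 0 rose, with a median log2 fold change of -0.02 (6.76% of all tested genes fell). The others that fell were Ccr9, a chemokine receptor found on lymphoid progenitors and plasmacytoid dendritic cells (by 0.80 ± 0.21, edgeR adjusted p = 0.0356; kept in 10 of 18 alternatives), and the transcription factor gene Mef2c (by 0.24 ± 0.07, 0.0451; 5 of 18). Without CK2i 2 and 5, where 175 genes of the whole table passed against 1892 with all libraries, none of the 5 passed. The log2 fold changes were then -0.17 for Stat5a (edgeR adjusted p = 0.0502), -0.12 for Stat5b (0.109) and -0.14 for Jak1 (0.112). They were -0.65 for Ccr9 (0.150) and -0.18 for Mef2c (0.222). Among the most abundant members, Myb was at 160 ± 4.25 FPKM in CK2i and 166 ± 12.0 FPKM in vehicle, Ikzf1, the gene of Ikaros, at 96.8 ± 6.52 and 102.5 ± 4.31 FPKM, and Tcf3, the gene of E2A, at 72.2 ± 4.78 and 75.7 ± 3.59 FPKM. None of these passed (edgeR adjusted p = 0.393, 0.753 and 0.226).

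The surrogate light chain genes gave the one case in which the groups did not overlap, at very low counts. Igll1, which encodes its lambda-like part (ENSMUSG00000075370; chromosome 16, 16860671 to 16863985), had 8, 8, 6, 14 and 7 counts in CK2i 1 to 5, against 5, 1, 4, 0 and 3 counts in vehicle 1 to 5. Every CK2i library lay above every vehicle library, with 43 counts in CK2i and 13 in vehicle in all. Igll1 was the 1 of 10 genes apart, where 10.9% of all tested genes were (5.18% with CK2i above and 5.76% with CK2i below). That share covers genes that passed the filter on low counts, which Igll1 missed. No such share was taken over genes with counts as low as its own. In the edgeR fit with no filter the log2 fold change was 1.76 ± 0.55 (SE; 95% interval 0.58 to 2.94), and it did not pass (adjusted p = 0.0722, and 0.0538 to 0.216 over 14 alternatives).

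The genes of the immunoglobulin lambda constant regions are homologous to Igll1 and could share reads with it. Iglc2, the one of these examined, was at 30.4 ± 13.9 CPM in CK2i and 42.5 ± 5.00 CPM in vehicle, and its part in the counts of Igll1 was not tested. Vpreb1, the variable-like part of the surrogate light chain (ENSMUSG00000059305; chromosome 16, 16868403 to 16870843), had 7, 8, 12, 9 and 10 counts in CK2i 1 to 5, against 16, 9, 6, 13 and 7 counts in vehicle 1 to 5. The CK2i values lay inside the vehicle range, and the log2 fold change in the fit with no filter was -0.06 ± 0.32 (SE, edgeR adjusted p = 0.936). The near-identical copy Vpreb2 took no count, and 108 exonic bases of Vpreb1 overlap Top3b on the opposite strand, a gene at 99.3 ± 7.80 CPM in CK2i and 88.1 ± 4.795 CPM in vehicle. Without a stated strand setting for the counting, reads of such overlaps cannot be told apart.

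The signal chains had fold changes of opposite sign, and neither passed the main test. Cd79a, the Ig-alpha chain (ENSMUSG00000003379; chromosome 7, 24897381 to 24902197), was at 2.15, 1.70, 2.39, 1.19 and 1.71 CPM in CK2i 1 to 5, against 2.06, 2.85, 2.82, 3.47 and 2.40 CPM in vehicle 1 to 5. Of the CK2i libraries 3 lay below all vehicle libraries, and CK2i 1 and 3 overlapped with them. The log2 fold change was -0.57 ± 0.20 (SE; 95% interval -1.01 to -0.13), with an unadjusted p of 0.0161 and an edgeR adjusted p of 0.0766. Over the alternatives the adjusted p ran from 0.0381 to 0.306, and it was under the threshold with DESeq2 (0.0406) and without CK2i 3 (0.0381).

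Cd79b, the Ig-beta chain (ENSMUSG00000040592; chromosome 11, 106311341 to 106314762), was at 16.4, 14.0, 14.9, 14.9 and 18.5 CPM in CK2i 1 to 5, against 12.7, 14.8, 14.8, 16.3 and 11.2 CPM in vehicle 1 to 5. The groups overlapped, and the log2 fold change was 0.17 ± 0.11 (SE, edgeR adjusted p = 0.285), with a 95% interval from 0.954-fold to 1.33-fold. In FPKM Cd79b was above its partner in every library. Both chains are needed for an antigen receptor to reach the surface of a B cell.

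**Figure D3:**
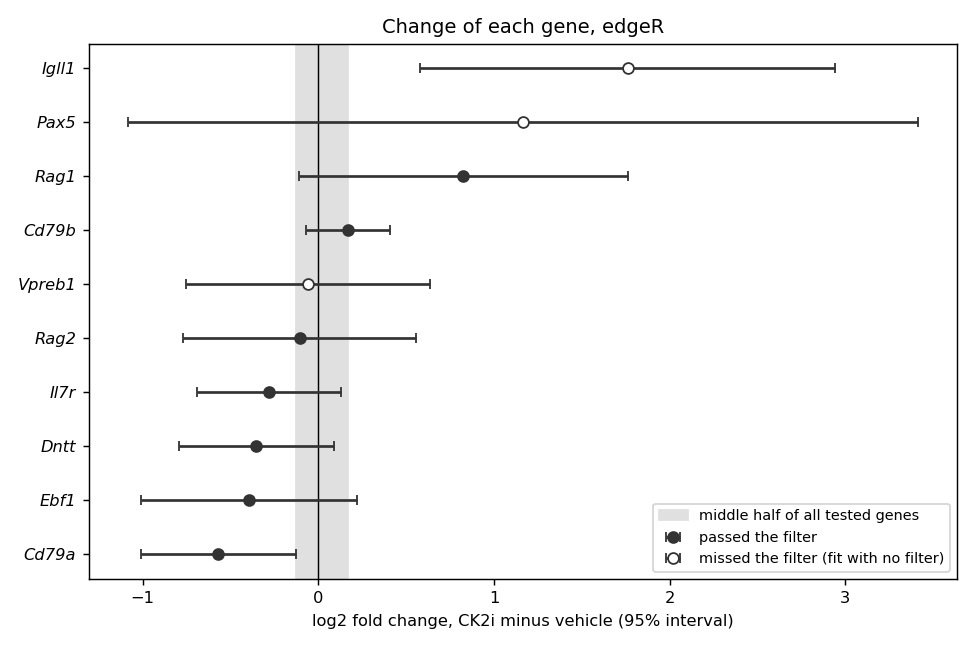
Log2 fold change (CK2i minus vehicle) of each gene with its 95% interval from edgeR; open points are genes that missed the filter, taken from the fit with no filter, and the grey band spans the lower to the upper quartile of all tested genes (-0.12 to 0.17). The intervals of Cd79a (-1.01 to -0.13) and Igll1 (0.58 to 2.94) do not include 0, and those of the 8 other genes do.

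Ratios of partner genes within a library do not depend on the scaling between libraries, and were compared for 3 pairs, a test chosen after the data were seen. Cd79a counts amounted to 13.1%, 12.2%, 16.1%, 8.01% and 9.22% of Cd79b counts in CK2i 1 to 5, against 16.2%, 19.2%, 19.0%, 21.3% and 21.3% in vehicle 1 to 5. Every CK2i library lay below every vehicle library, narrowly so for CK2i 3 against vehicle 1. The mean log2 ratio was -3.13 ± 0.40 in CK2i and -2.37 ± 0.16 in vehicle (SD, n = 5 per group), a difference of -0.76 (exact permutation test over libraries, two-sided, p = 0.00794, the smallest that these groups allow; 0.0238 adjusted over the 3 ratios). It lay between -0.89 and -0.64 when each library was left out in turn (exact p = 0.0159 or less).

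Library CK2i 3 also held the most Ighm, the mu heavy chain gene of B and plasma cells, at 3119 CPM, against 713 to 1169 CPM in the other CK2i libraries and 1242 to 1876 CPM in vehicle libraries. Jchain, the joining chain of plasma cells, was the 1 gene of the 9 in the plasma cell list that passed, with a fall of 0.94 ± 0.14 on the log2 scale (SE, edgeR adjusted p = 0.00611). Cd79a and Cd79b are both also made by mature B cells, and the part of such cells in the ratio of Cd79a to Cd79b was not tested.

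The log2 ratio of Igll1 to Vpreb1 averaged -0.13 ± 0.60 in CK2i and -2.13 ± 1.67 in vehicle (SD, n = 5 per group), a difference of 2.00 (exact permutation p = 0.0159, 0.0238 adjusted over the 3 ratios). The groups overlapped, with 4 of 5 CK2i libraries above all vehicle libraries. The ratio rests on at most 16 counts of either gene in a library, and its exact p was 0.0556 without CK2i 1, without CK2i 2 or without CK2i 4. The log2 ratio of Rag1 to Rag2 averaged 0.26 ± 0.84 in CK2i and -0.33 ± 0.54 in vehicle and did not pass (exact permutation p = 0.254, also 0.254 adjusted over the 3 ratios).

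**Figure D4:**
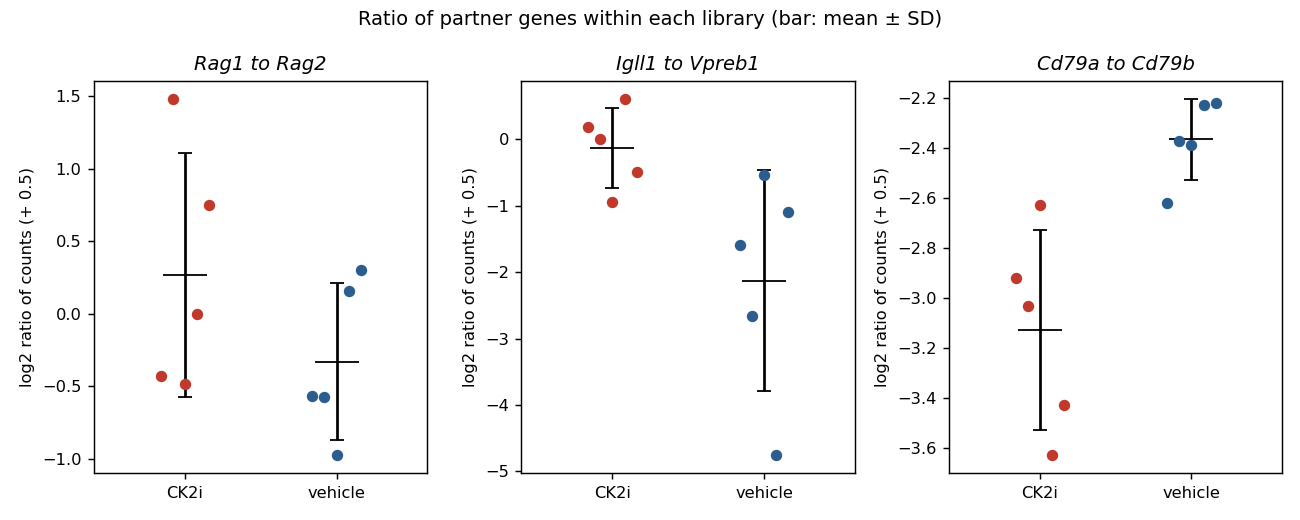
Log2 ratio of counts (with 0.5 added) of Rag1 to Rag2, Igll1 to Vpreb1 and Cd79a to Cd79b in each library, with the mean and SD of the 5 CK2i and 5 vehicle libraries. The Cd79a to Cd79b ratio is lower in all CK2i libraries (-3.63 to -2.63) than in all vehicle libraries (-2.62 to -2.22), and the vehicle libraries spread widely for Igll1 to Vpreb1.

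Among the 18 further B lineage genes, 12 passed the filter, 1 fell and 0 rose, with a median log2 fold change of -0.11. A share of 1 in 12 is again near the 6.76% of all tested genes. Cnr2, a cannabinoid receptor found on B cells and myeloid cells, fell to 51.1 ± 8.77 CPM in CK2i against 66.9 ± 4.44 CPM in vehicle (log2 -0.39 ± 0.11, edgeR adjusted p = 0.0402), with every CK2i library below every vehicle library; the call was kept in 8 of 18 alternatives. The lowest values of Cnr2 were those of CK2i 2 and 5, at 40.4 and 42.7 CPM, and without them its log2 fold change was -0.22 (adjusted p = 0.0951). Bank1 had the largest fold change of the 12, of opposite sign to Cnr2, and did not pass (log2 0.85 ± 0.27, edgeR adjusted p = 0.0578). It was at 0.98 ± 0.32 CPM in CK2i and 0.54 ± 0.14 CPM in vehicle, with 4 of 5 CK2i libraries above every vehicle library. The list's abundant genes are not restricted to B cells. Cd24a, a surface protein of many immature blood cells, was at 348 ± 37.5 FPKM in CK2i and 299 ± 33.2 FPKM in vehicle, and Btk, a kinase of B cell and myeloid receptor signals, at 62.1 ± 2.92 and 63.2 ± 3.99 FPKM. Neither passed (edgeR adjusted p = 0.113 and 0.769).

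**Figure D5:**
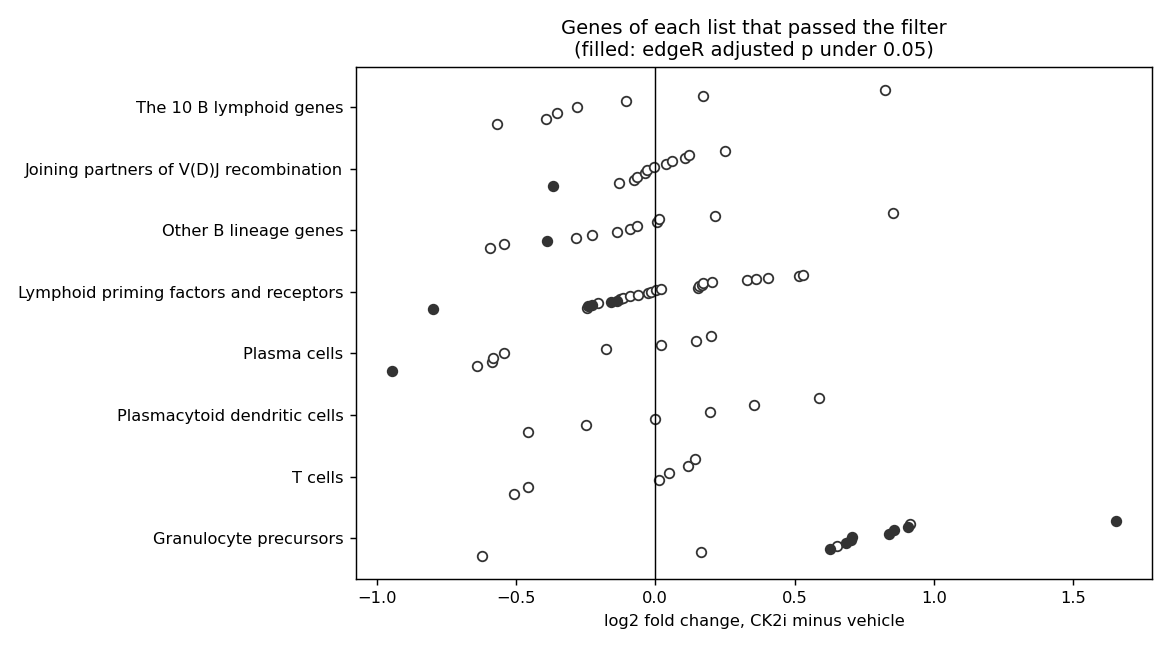
Log2 fold change (CK2i minus vehicle) of the genes of each list that passed the filter, with filled points for an edgeR adjusted p under 0.05 and open points for the rest. None of the 7 B lymphoid genes is filled, the filled points of the B lineage, joining and priming lists lie below 0, and those of the granulocyte precursor list lie above 0.

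Across the 10 libraries, 8 relations between members were examined on log2(CPM + 0.5), and none held after adjustment. The strongest was that of Dntt with Rag2 (Pearson r = 0.737, permutation p = 0.0120, 0.0960 adjusted over the 8; Spearman rho = 0.661, permutation p = 0.0437, 0.350 adjusted). It was r = 0.637 without the 2 libraries farthest from the median of Dntt, and it rests on 8 to 28 counts of Rag2 per library. Cd79a and Cd79b gave r = -0.0363 (permutation p = 0.922), and Rag1 and Rag2 gave r = 0.231 (permutation p = 0.494). These values pool both groups. With the group means removed, which was not tested, r was 0.459 for Cd79a with Cd79b and 0.287 for Rag1 with Rag2. For Dntt it was then 0.795 with Rag2, 0.738 with Cd79b, 0.605 with Rag1, 0.453 with Il7r, 0.436 with Cd79a and -0.138 with Ebf1.

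As a description, the genes whose variation among the 10 libraries was most like that of a member were sought among 10713 named genes of at least 1 FPKM, with the group means removed. For Dntt these were Lsp1 (r = 0.974), Wdfy2 (0.973) and Hcls1 (0.972). For Cd79b they were Clec10a (0.980), Tceanc2 (0.920) and Il10rb (0.919), for Cd79a they included Smarcd1 (0.913) and Alkbh6 (0.904), and for Il7r Mxd4 (0.903), Yipf2 (0.897) and Sigirr (0.873). Within a library all genes share its depth and scaling. Rag1, Rag2 and Ebf1 held 8 to 54 counts per library, too few for such a likeness to be read.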

How the data were processed

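RNA was sequenced from bone marrow hematopoietic progenitor cells in 5 CK2i and 5 vehicle libraries (stranded total RNA kit, 75 base paired reads, per the labels' protocols). Bowtie2, RSEM 1.2.31, DESeq2 and build mm10 are named in the submitters' processing notes; the sources used here do not give annotation, strand setting or filters. The deposited table holds estimated counts per gene, already whole numbers and used as such, and FPKM values computed by the authors per transcript length and depth. The 2 empty lines were dropped, and 1317 of 38887 identifiers without a symbol kept their identifier.

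The main test was edgeR 4.0.16 (R 4.3.3), quasi-likelihood, TMM scaling, group as the only term, filterByExpr with a minimum count of 10, and p-values (two-sided) adjusted by Benjamini-Hochberg across the 14346 genes kept and a threshold of 0.05. The SE is the fold change over the square root of F. CPM use TMM scaling. The script was tested on simulated data. Alternatives were RLE scaling, no filter, DESeq2 1.42.0, a replicate block, limma 3.58.1 on log2(FPKM + 1) and log2(FPKM + 0.1), and libraries left out. With 34127674 to 43636152 counts per library, counting error matters only for members with few counts. Members and lists were chosen with earlier results of these data known. From each list, genes that passed (at most the 4 of smallest p) and the most abundant others could be named; Mef2c is the fifth of its list and is named to complete the count. Bank1, Cr2, Derl3, Fcer2a, Gfi1, Hlf, Irf4, Jak3, Mecom, Mpo, Ms4a1, Prdm1, Tnfrsf17, Vpreb2, Ighm, Iglc2, Top3b and B230118H07Rik were named after their values were seen. Ratios used exact permutation tests. Some genes that the rule or the lists hold are not reported here.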

Additional observations from a re-analysis of the deposited data

Results flagged for a closer look

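Of 48 groups of 5 libraries checked (21 genes and 3 ratios in both groups), 1 held a library far from the others, where chance gives about 1 in 20. It was Pax5 in the vehicle group, at 0.0515 CPM in vehicle 5 while vehicle 1 to 4 were at 0. That value is 2 counts, below the limit of 3 that a count of 0 allows, and in FPKM it is listed as 0.33.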

How the results depend on the processing

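The number of genes called in the whole table, 1892, was 3142 with DESeq2, 1139 with the replicate number as a block, 1197 with limma on log2(FPKM + 1), 1223 on log2(FPKM + 0.1), 360 on log2(FPKM + 1) with no filter, 175 without CK2i libraries 2 and 5, and 446 to 3198 when each library was left out in turn. The number of members called, 0, was 1 (Cd79a) with DESeq2, and 0 to 1 over the libraries left out, the 1 being Cd79a without CK2i 3; it was 0 in all other alternatives, the replicate block among them. Same-numbered libraries did not deviate together in every pair (correlations of deviations -0.19 to 0.252), so the numbers were not taken to pair samples. Signs turned for Rag1 without CK2i 2 and 5 (-0.064), for Pax5 (-0.046) and Vpreb1 (0.00068) with limma on unfiltered FPKM, for Rag2 (-0.30 to 0.068 over the libraries left out) and for Vpreb1 (-0.20 to 0.13); the cause was not tested. The difference in the log2 ratio of Igll1 to Vpreb1 was 2.08 without CK2i 2 and 5 (exact p = 0.107) and 1.34 to 2.40 over the libraries left out. Depth limits Pax5, Igll1 and Vpreb1, at 0 to 16 counts per library. DESeq2 gave no adjusted p for Igll1 and Pax5.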
